A study of Mus musculus with 2 samples.

Results

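Dividing astrocytes of the postnatal mouse brain are described here: 120 single cells that carried transcripts of astrocytes and of the cell division machinery at once. They were drawn from 20741 barcodes that passed limits of at least 500 genes, at least 1500 unique transcripts (unique molecular identifiers, UMIs) and at most 10% mitochondrial UMIs, out of 32486 deposited barcodes. A member had at least 3 UMIs of Aqp4 and Aldh1l1 together and at least 3 UMIs of Top2a, Mki67, Cdk1 and Ube2c together. It also had at most 1 UMI of Pdgfra, Cldn5 and P2ry12 together, and at most 1 UMI of the ependymal genes Tmem212, Ccdc153 and Foxj1. Library 1 gave 50 of the members and library 2 gave 70. The values of these rule genes chose the cells, so they and the higher level of division genes in the members are descriptions and not findings.

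The study profiled cells freshly taken from the brains of mice of strain C57BL/J at postnatal day 10 with droplet-based 3' single-cell RNA sequencing. It names 6 mice for the series and 1 group with 2 libraries, and no treatment, genotype or region is given. Which mice went into which library is not stated, so the libraries are the replicates here and their spread may be technical. Library 1 held 51452085 UMIs over 12978 barcodes and library 2 held 45532691 over 19508, with 90 barcode sequences in common.

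Astrocytes are glial cells that clear glutamate and potassium, supply neurons with metabolites and help synapses to form. In the first weeks after birth many of the astrocytes of the rodent forebrain arise by local division of cells that already carry astrocyte genes. A dividing cell first copies its DNA with the origin licensing and fork proteins, then condenses and separates its chromosomes with mitotic kinases, kinetochores and spindle motors, while D-type cyclins and their inhibitors govern its entry from the G1 phase.

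4 classes drawn from the same droplets by similar rules were set beside the members. They were 576 non-dividing astrocytes (0 UMIs of the 4 division genes), 239 dividing and 1070 non-dividing oligodendrocyte precursor cells (OPCs, cells with at least 3 UMIs of Pdgfra and Cspg4), and 1383 dividing progenitors with at least 3 UMIs of Dlx1 and Dlx2, genes of the inhibitory neuron lineage. Levels are given in CPM, the UMIs of a gene per 1000000 summed UMIs of its class in a library, with library 1 before library 2. Tests used edgeR's quasi-likelihood test on the 10 class sums of both libraries, and a gene was called where its Benjamini-Hochberg adjusted p was under 0.05, its log2 fold change was 1 or more in size and both libraries gave the same sign. The 3 comparisons share the sums of the dividing astrocytes.

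Markers outside the rule went with the label. To even out depth, each cell was thinned to 3000 UMIs, which left out 1 member. Slc1a3, which encodes the glutamate transporter GLAST, had a UMI in 96% of the members of library 1 and 92.8% of those of library 2, against 21.6% of the dividing OPCs of each library. Without thinning these shares were 100% and 100% of members, against 44.8% and 41.7% of dividing OPCs, whose median depth was 7649 and 7197.5 UMIs. Gja1, the astrocyte gap junction protein connexin 43, had a UMI in 50% and 47.8% of members (76% and 78.6% unthinned), against 1.44% and 1.14% of dividing OPCs. The astrocyte markers Slc1a3, Slc1a2, Gja1, Aldoc, Sox9, Gfap and Mlc1 were each detected in members of both libraries. Their lowest thinned share was that of Gfap, 20% and 10.1% of members, against 2.16% or less of dividing OPCs. The 8 division markers outside the rule (Ccnb1, Cenpf, Nusap1, Birc5, Hmgb2, Tpx2, Ccna2 and Prc1) were each found in 40% to 100% of the thinned members of a library.

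Transcripts of other lineages were present at lower levels in the members. Olig2, a factor of the oligodendrocyte lineage, had a UMI in 32% and 27.5% of thinned members (48% and 50% unthinned), against 15.5% and 17.6% of thinned non-dividing astrocytes and 65.5% and 63.6% of thinned dividing OPCs. Dlx2 was found in 6% and 2.90% of thinned members (8% and 4.29% unthinned), against 85% and 84% of thinned dividing Dlx progenitors. The summed neuroblast and inhibitory neuron markers, of which 12 and 13 of 14 genes had a UMI, stood at 518 and 269.8 CPM in members and at 329 and 399 CPM in non-dividing astrocytes. Of the members, 8 of 50 and 4 of 70 held at least 10 of these UMIs, with up to 46 and 37 in a cell. Among non-dividing astrocytes, 21 of 363 and 16 of 213 held at least 10. The summed OPC markers stood at 622 and 518 CPM in members and at 497 and 620.5 CPM in non-dividing astrocytes. In dividing OPCs they stood at 3535 and 3735 CPM. At least 10 UMIs of these OPC markers were held by 7 of 50 and 11 of 70 members. The same held for 10 of 363 and 14 of 213 non-dividing astrocytes. Microglia markers summed to 2.26 and 416 CPM in members, against 1.03 and 58.3 CPM in non-dividing astrocytes, and 3 members of library 2 held at least 10 of these UMIs. Scrublet marked 8 and 3 members as likely doublets. The counts of called genes and the share of dividing cells were also taken without the marked cells.

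The members varied widely among themselves. Their total UMIs ran from 3335 to 14711 with a median of 8663 in library 1, and from 2639 to 18111 with a median of 8317.5 in library 2. UMIs of the 4 division genes ran from 3 to 69 with a median of 19.5 in library 1 and from 3 to 61 with a median of 21.5 in library 2. Few cells sat near the lower limit: 8 and 9 cells with the astrocyte part of the rule had 2 division UMIs and stayed out, 3 and 6 had exactly 3 and came in, and 34 and 45 had at least 12. The astrocyte limit ran through a denser range. At 3 UMIs of Aqp4 and Aldh1l1 there were 14 and 13 members, and at 2 UMIs, just outside, there were 17 and 26 dividing cells. Slc1a3 stood at 1060.1 and 1554 CPM in the cells just inside and at 1198 and 845 CPM in those just outside.

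Of all cells that met the astrocyte part of the rule, 11.1% of library 1 (50 of 451, exact binomial 95% interval 8.34% to 14.4%) and 22.4% of library 2 (70 of 313, 17.9% to 27.4%) met the division part. The mean share was 16.7% ± 7.97 (SD, n = 2 libraries), and the intervals of the libraries do not overlap at full depth. Each interval covers counting error only. The shares depend on depth, since the limit is a number of UMIs: they were 13.3% and 25.2% among cells of at least 4000 UMIs, and 5.80% and 12.4% when every cell was thinned to 3000 UMIs before the rule was applied. Library 2 stayed above library 1 in each of these settings, but after thinning the intervals overlap, at 3.35% to 9.24% and 7.96% to 18.2%. Dividing OPCs, by the same division rule, made up 13.9% and 20.8% of all OPCs, and 24.2% and 33.5% of OPCs of at least 4000 UMIs. Library 2 was the higher one there too, and in library 2 the order of astrocytes and OPCs turned between these settings. With 2 libraries, no exact permutation test between these classes can reach 0.05.

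Mitotic transcripts outnumbered replication transcripts in most members. In cells thinned to 3000 UMIs, the UMIs of 71 mitosis genes were above those of 39 replication genes in 76% of members of library 1 (38 of 50, exact 95% interval 61.8% to 86.9%) and in 81.2% of library 2 (56 of 69, 69.9% to 89.6%). Replication genes led in 10 and 13 members. The share with more mitosis UMIs was 84.2% and 87.5% in dividing OPCs and 78.6% and 77.8% in dividing Dlx progenitors. This share compares summed UMIs of lists with unequal levels and was drawn among cells selected by division genes of which most act in mitosis, so it does not give the length of a phase. For the gene levels that follow, the split was made without thinning, with 11 and 13 members led by replication and 39 and 57 led by mitosis. These groups also differed in genes of these lists, which follows from the split. As an example, Cdc20, the activator of the anaphase ubiquitin ligase, stood at 11.5 and 17.3 CPM in members led by replication and at 324 and 390.1 CPM in those led by mitosis. Outside the lists of the split, Ccne2, cyclin E2 of the step into DNA synthesis, stood at 149 and 233 CPM in members led by replication and at 14.1 and 6.1 CPM in those led by mitosis. Slc1a3 was at 1389.6 and 1356 CPM in members led by replication and 1248 and 1418 CPM in those led by mitosis, and Egfr was at 172 and 190.0 CPM against 161 and 140.2 CPM. None of these differences was tested.

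Besides mitosis and replication genes, the cell cycle lists held chromosome proteins and genes of the G1 phase. All 154 genes of the cell cycle lists made up 3.26% and 3.13% of all UMIs of dividing astrocytes, against 0.478% and 0.580% in non-dividing astrocytes. Against non-dividing astrocytes, 661 of 10565 tested genes were called higher in dividing astrocytes, a share of 6.26%, and 359 were called lower, a share of 3.40%. Among the called higher ones were 69 of the 71 mitosis genes and 33 of the 38 tested replication genes, which the rule fixes in large part. Of 23 genes of the G1 phase, 9 were called higher and 0 lower, likewise a description of classes split by division genes. Their summed level was 1859.6 and 1913 CPM in dividing astrocytes and 1221 and 1555 CPM in non-dividing astrocytes. Cenpa, the histone of the centromere, stood at 642 and 716 CPM in dividing astrocytes and at 3.10 and 5.92 CPM in non-dividing astrocytes. Hmgb2, a chromatin protein, was at 4189.7 and 4106 CPM in dividing astrocytes and at 256 and 310.3 CPM in non-dividing astrocytes, and every thinned member had a UMI of it. Pcna, the sliding clamp of the replication fork, was at 371 and 247 CPM in dividing astrocytes and 64.0 and 72.7 CPM in non-dividing astrocytes. Melk, a mitotic kinase, had 70 UMIs in dividing astrocytes and 0 in non-dividing astrocytes, which puts it at least 69.3-fold higher, with a floor of 3 UMIs over the group.

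**Figure D1:**
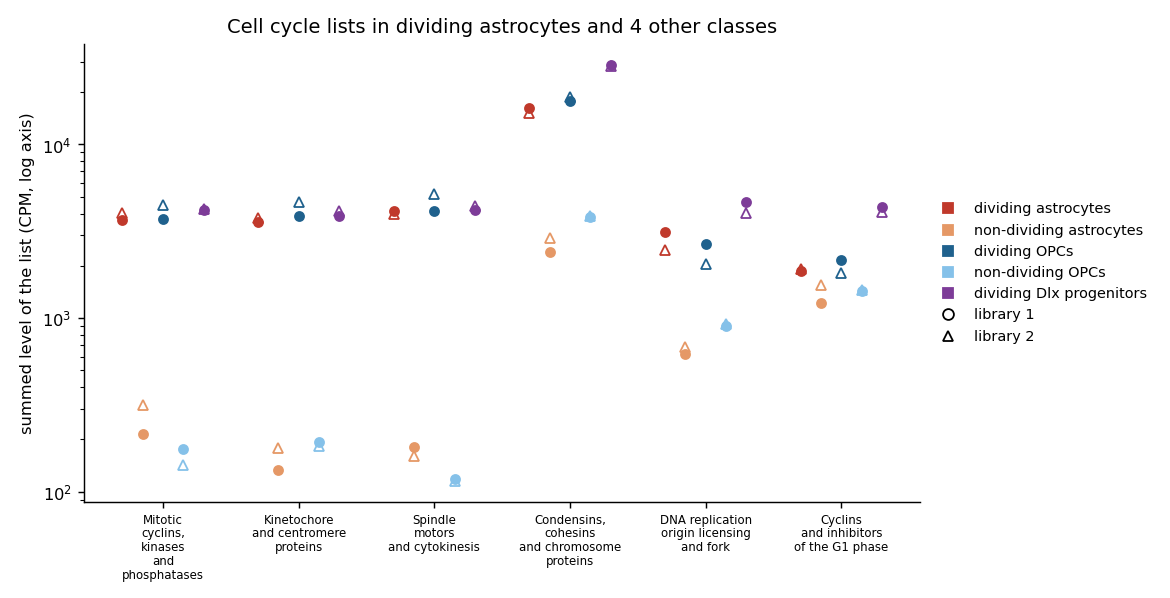
Summed level of 6 lists of cell cycle genes in dividing astrocytes and 4 other classes, in CPM on a log axis, with library 1 as filled circles and library 2 as open triangles. The mitosis lists of the 3 dividing classes lie close together, while replication, chromosome and G1 lists are highest in dividing Dlx progenitors.

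The promoters of these division genes carry known cell cycle elements, and 5 of them are shown because they belong to mitosis and replication genes whose levels are described here. Many mitotic genes are repressed outside division through the cell cycle homology region (CHR, letters TTTGAA or TTCGAA) and often hold a nearby CCAAT box bound by NF-Y, while many replication genes carry E2F sites. The sequences are RefSeq windows of assembly GRCm38.p6, from 250 bases before to 50 after the annotated start, printed 5′ to 3′ on the strand of the gene. Capitals mark each match to the CHR letters, to CCAAT or to one of 4 E2F spellings (TTTGGCGC, or TTTCCCGC, or TTTGCCGC, or TTTCGCGC), on either strand. Cdc20 is at chr4:118437294-118437593 (minus strand), Prc1, a bundler of spindle microtubules, at chr7:80294201-80294500 (plus), Cenpa at chr5:30666636-30666935 (plus), Cks2, a subunit of cyclin-dependent kinases, at chr13:51644982-51645281 (plus), and Mcm3, a subunit of the replicative helicase, at chr1:20820263-20820562 (minus).
Cdc20: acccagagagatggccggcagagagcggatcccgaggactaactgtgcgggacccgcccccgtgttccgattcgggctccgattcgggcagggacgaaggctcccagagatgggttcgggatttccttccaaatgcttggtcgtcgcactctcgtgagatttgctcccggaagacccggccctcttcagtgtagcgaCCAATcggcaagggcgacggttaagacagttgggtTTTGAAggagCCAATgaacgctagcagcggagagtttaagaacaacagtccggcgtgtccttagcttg
Prc1: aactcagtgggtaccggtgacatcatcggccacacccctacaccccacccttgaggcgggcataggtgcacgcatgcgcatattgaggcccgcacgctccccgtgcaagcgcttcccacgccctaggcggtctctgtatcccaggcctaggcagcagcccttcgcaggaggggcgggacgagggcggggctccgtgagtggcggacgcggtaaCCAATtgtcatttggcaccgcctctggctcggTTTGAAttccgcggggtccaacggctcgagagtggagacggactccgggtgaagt
Cenpa: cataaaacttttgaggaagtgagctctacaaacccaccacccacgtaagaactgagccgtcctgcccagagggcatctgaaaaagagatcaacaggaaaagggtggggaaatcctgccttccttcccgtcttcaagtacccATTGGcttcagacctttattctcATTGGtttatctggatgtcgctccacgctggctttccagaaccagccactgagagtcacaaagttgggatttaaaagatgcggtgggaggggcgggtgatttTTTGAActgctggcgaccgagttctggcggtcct
Cks2: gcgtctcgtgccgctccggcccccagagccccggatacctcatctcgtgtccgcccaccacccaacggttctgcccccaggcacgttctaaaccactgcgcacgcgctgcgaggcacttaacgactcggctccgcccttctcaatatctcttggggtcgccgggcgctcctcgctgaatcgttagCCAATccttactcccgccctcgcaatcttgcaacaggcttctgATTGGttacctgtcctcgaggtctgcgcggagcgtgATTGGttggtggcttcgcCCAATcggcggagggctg
Mcm3: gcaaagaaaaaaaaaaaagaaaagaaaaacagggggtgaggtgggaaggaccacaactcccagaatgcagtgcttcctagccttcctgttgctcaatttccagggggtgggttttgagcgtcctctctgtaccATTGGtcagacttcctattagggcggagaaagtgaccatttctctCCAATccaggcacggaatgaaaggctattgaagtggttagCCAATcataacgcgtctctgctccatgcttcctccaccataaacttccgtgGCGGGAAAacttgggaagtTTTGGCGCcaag
The Cdc20 window holds CHR letters 18 bases before the start between CCAAT boxes at 53 and 8 bases before it. Prc1 and Cenpa also hold CHR letters and CCAAT boxes, Cks2 holds 4 CCAAT boxes and no CHR letters, and Mcm3 holds 3 CCAAT boxes and 2 E2F spellings. Of the 71 mitosis genes, 60 matched a window by symbol, and 41 of them (68.3%) held CHR letters, against 15.6% of 32 matched replication genes, 15.5% of 71 matched astrocyte genes and 21.7% of all genes with a window. CHR letters and a CCAAT box stood together in 56.7% of the matched mitosis genes, against 8.61% of all genes with a window. An E2F spelling was in 5% of the matched mitosis genes, against 43.8% of the matched replication genes and 2.61% of all genes. A match describes these letters and does not show binding.

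Astrocyte genes were lower in dividing than in non-dividing astrocytes, and none was called higher. The 4 lists of astrocyte genes, regional genes among them, held 82 tested genes (91 listed). Of these, 17 were called lower and 0 higher, in a comparison where 3.40% of all tested genes were called lower. The median log2 difference was -0.82 for 21 secreted and surface synapse factors, -0.58 for 20 enzymes, -0.51 for 18 transporters and channels, and -0.15 for 23 maturation and regional genes, against -0.03 for all tested genes. Dividing cells were deeper, with medians of 8663 and 8317.5 UMIs against 5190 and 5467 in non-dividing astrocytes. The limit of 3 Aqp4 and Aldh1l1 UMIs was therefore easier to meet for them: Aqp4 stood at 409 and 372 CPM in dividing astrocytes and at 952 and 812 CPM in non-dividing astrocytes, a description of the rule. Among cells of at least 4000 UMIs the count called lower was 18, in cells thinned to 3000 UMIs it was 19, and in classes drawn after such thinning it was 12, with 0 called higher each time. It was 20 without the cells marked by Scrublet. The median mitochondrial share was 3.34% and 3.83% in dividing astrocytes and 4.22% and 4.90% in non-dividing astrocytes, and 5 of 21 genes of tissue dissociation were also called lower. Among cells of at most 5% mitochondrial UMIs, 16 of 81 tested genes of the 4 astrocyte lists were called lower. The part of the dissociation genes in the drop of astrocyte genes was not tested.

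Gfap (chromosome 11, 102887336 to 102900912, minus strand of mm10), the intermediate filament protein of astrocytes, stood at 140.3 and 85.5 CPM in dividing astrocytes and at 1319 and 658 CPM in non-dividing astrocytes. Both libraries of dividing astrocytes lay below both of non-dividing astrocytes. The log2 fold change was -3.07 ± 0.14 (SE), or 8.41-fold lower, with an adjusted p of 7.58e-15 by edgeR's quasi-likelihood test. A Gfap UMI was found in 26 of 120 dividing astrocytes (21.7%, exact 95% interval 14.7% to 30.1%) and in 329 of 576 non-dividing astrocytes (57.1%, 53.0% to 61.2%), although the dividing cells held more UMIs. Thinned to 3000 UMIs, the shares were 20% and 10.1% of dividing astrocytes, against 54.1% and 44.2% of non-dividing astrocytes. Dividing OPCs, a class that should lack the gene, had a UMI in 2.09% of 239 cells at full depth.

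Enzymes and receptors of mature astrocytes gave the same picture. Aldoc, the brain form of aldolase, was at 357 and 337 CPM in dividing astrocytes and at 1546 and 1216 CPM in non-dividing astrocytes, a log2 change of -1.95 ± 0.13 (edgeR adjusted p of 1.06e-11). It still had a UMI in 93 of 120 dividing cells, against 555 of 576 non-dividing cells. The groups did not overlap. Ntsr2, a neurotensin receptor, fell to 47.5 and 19.7 CPM in dividing astrocytes, against 210.1 and 137 CPM in non-dividing astrocytes. Fbxo2, a ubiquitin ligase subunit that binds glycoproteins, fell to 119.9 and 120.1 CPM in dividing astrocytes, against 398 and 366 CPM in non-dividing astrocytes. Both genes kept their call in every alternative setting. Gpr37l1, an orphan receptor of glia, changed by -1.04 ± 0.19 and was not called among cells of at most 5% mitochondrial UMIs, where the change was -0.91.

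Secreted proteins included several of the most abundant genes that fell. Apoe, the main lipid carrier of the brain (chromosome 7, 19696109 to 19699188, minus strand of mm10), stood at 9554 and 8358 CPM in dividing astrocytes and at 22354 and 17024 CPM in non-dividing astrocytes, a log2 change of -1.12 ± 0.17 (edgeR adjusted p of 2.82e-05). Clu, the extracellular chaperone clusterin, was at 251 and 222 CPM in dividing astrocytes, against 1185 and 626 CPM in non-dividing astrocytes. Sparcl1, the synapse-forming protein hevin, was at 572 and 794 CPM in dividing astrocytes and 1687 and 1455 CPM in non-dividing astrocytes. No value of these genes in dividing astrocytes reached one in non-dividing astrocytes. Sparcl1 lost its call in classes drawn after thinning, with a change of -0.91 there against -1.16 ± 0.14 at full depth. Sparc, which counters hevin at synapses, fell to 140.3 and 77.3 CPM in dividing astrocytes, against 343 and 169.9 CPM in non-dividing astrocytes. Agt, the precursor of angiotensin, fell to 13.6 and 19.7 CPM in dividing astrocytes, against 188 and 125 CPM in non-dividing astrocytes, and Igfbp5, which binds insulin-like growth factors, to 49.8 and 39.5 CPM against 319 and 209.7 CPM.

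A few genes that fell furthest were low in most cells. Myoc, which encodes the secreted protein myocilin, had 3 UMIs in dividing astrocytes and 514 in non-dividing astrocytes, 57.7-fold lower per UMI of the class with a counting interval of 19.6 to 281. These UMIs came from 2 of 120 dividing and 39 of 576 non-dividing astrocytes, and DESeq2 did not call the gene. Cidea, a protein of lipid droplets, was at 6.79 and 4.93 CPM in dividing astrocytes and 57.8 and 59.2 CPM in non-dividing astrocytes, and Rhcg, an ammonia channel, at 6.79 and 18.1 CPM against 93.5 and 83.7 CPM. Naaa, a lipid amidase, and C730034F03Rik changed by -2.71 ± 0.53 and -2.98 ± 0.67 on the log2 scale. C730034F03Rik lost its call at 5% mitochondrial UMIs or less and in classes drawn after thinning, where its change was -0.99.

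**Figure D2:**
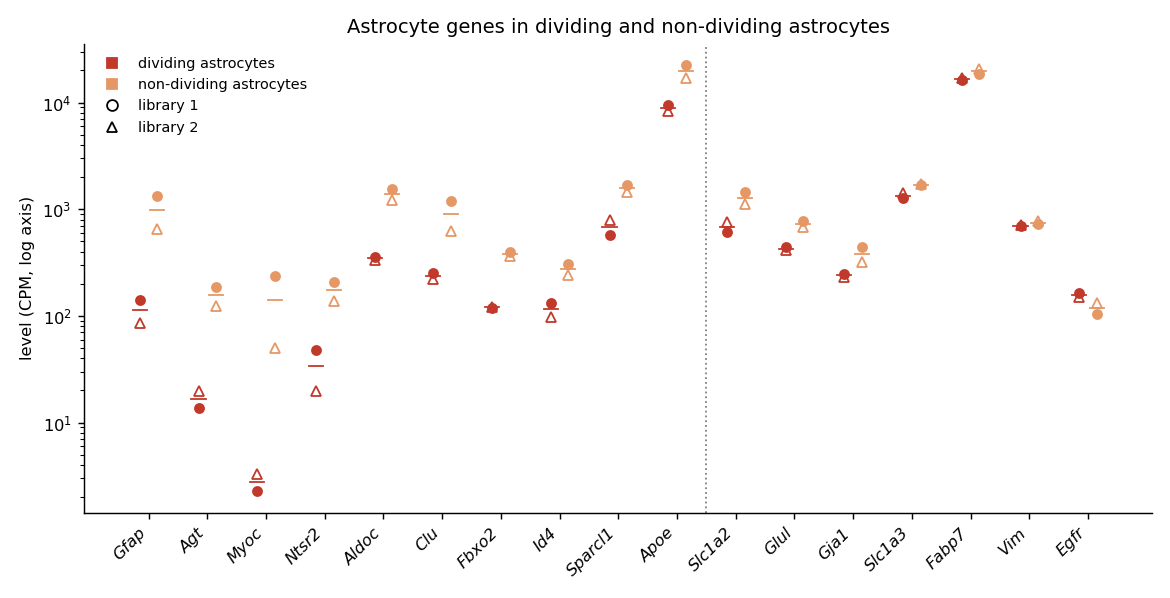
Level of 17 genes in dividing astrocytes (left of each pair) and non-dividing astrocytes, in CPM on a log axis, with library 1 as filled circles, library 2 as open triangles, bars at their means and a dotted line after the last gene called lower. Gfap, Agt, Aldoc and Clu lie lower in dividing than in non-dividing astrocytes in both libraries, while Fabp7 and Vim lie close together.

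Not all astrocyte genes moved so far. Slc1a3 stood at 1276 and 1406 CPM in dividing astrocytes and at 1701 and 1708 CPM in non-dividing astrocytes, a log2 difference of -0.32 ± 0.13 with an edgeR adjusted p of 0.105. Slc1a2, the second astrocyte glutamate transporter, was at 615 and 762 CPM in dividing astrocytes and 1450.3 and 1121 CPM in non-dividing astrocytes, a difference of -0.85 ± 0.13. Glul, the enzyme that turns glutamate into glutamine, differed by -0.74 ± 0.13. Gja1 differed by -0.63 ± 0.16. These last 3 had adjusted p values under 0.05 by edgeR and stayed uncalled because their fold changes were below the limit. Among the transporters and channels, Slc7a10, a neutral amino acid transporter, and Kcnj16, a potassium channel, were called lower. Slc7a10 lost the call in classes drawn after thinning, and Kcnj16, with 1 and 6 UMIs in the dividing astrocytes of the libraries, lost it in 6 settings. S100b, a calcium-binding protein, was at 18.1 and 23.0 CPM in dividing astrocytes and 54.7 and 36.4 CPM in non-dividing astrocytes. Its difference of -1.07 ± 0.39 had an edgeR adjusted p of 0.0650, and it was called in 4 alternative settings.

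Of the maturation and regional genes, Gfap, Agt and Id4 were called lower. Id4, an inhibitor of basic helix-loop-helix factors, fell to 131 and 98.7 CPM in dividing astrocytes, against 309 and 242 CPM in non-dividing astrocytes. Crym, a thyroid hormone binding protein, was at 15.8 and 8.22 CPM in dividing astrocytes and 43.9 and 10.1 CPM in non-dividing astrocytes, an uncalled difference of -1.03 ± 0.49.

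Of 25 tested genes of radial glia and neural stem cells (29 listed), 0 were called in either direction and the median log2 difference was -0.07. Fabp7, a fatty acid binding protein of radial glia and young astrocytes, was in all 120 members and stood at 16198 and 16896 CPM in dividing astrocytes, against 18629 and 20652 CPM in non-dividing astrocytes. Vim, an intermediate filament protein, was at 697 and 707 CPM in dividing astrocytes and 725 and 776 CPM in non-dividing astrocytes, a difference of -0.07 ± 0.11. Nes, the filament protein nestin, differed by 0.60 ± 0.28.

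Genes of the signals that drive glial growth were mostly uncalled between dividing and non-dividing astrocytes. Of 30 tested growth factor receptor and mitogen genes (34 listed), 1 was called lower and 0 higher, with a median of -0.11. That gene was Pdgfrb, a receptor of pericytes, with 2 UMIs in dividing astrocytes and 65 in non-dividing astrocytes, 10.9-fold lower with a counting interval of 2.91 to 92.2, and it was not called by DESeq2 or without the library block. Summed pericyte and fibroblast markers moved with it, at 22.6 and 4.93 CPM in dividing astrocytes against 140.4 and 24.5 CPM in non-dividing astrocytes, and their part in it was not tested. Egfr, the receptor of epidermal growth factor, was at 163 and 149.7 CPM in dividing astrocytes and 104 and 134 CPM in non-dividing astrocytes, a difference of 0.43 ± 0.18 that did not pass. Of 19 tested Notch pathway genes, 0 were called. Hes5, a target of Notch, differed by -0.69 ± 0.17.

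None of the D-type cyclins was called between dividing and non-dividing astrocytes. Ccnd1, cyclin D1 (chromosome 7, 144929931 to 144939925, minus strand of mm10), stood at 40.7 and 59.2 CPM in dividing astrocytes and at 38.2 and 51.6 CPM in non-dividing astrocytes, a difference of 0.24 ± 0.25. Ccnd2, cyclin D2, was at 459 and 546 CPM in dividing astrocytes and 499 and 766 CPM in non-dividing astrocytes, a difference of -0.29 ± 0.20. Cdkn1b, the cyclin kinase inhibitor p27, was at 186 and 192 CPM in dividing astrocytes and 163 and 173 CPM in non-dividing astrocytes, a difference of 0.20 ± 0.14. The values of Ccnd1 and Ccnd2 overlap between the classes and those of Cdkn1b do not. The inhibitors Cdkn2c and Cdkn2d were called higher in dividing astrocytes. Cdkn2c was at 226 and 252 CPM in dividing astrocytes, against 52.1 and 67.6 CPM in non-dividing astrocytes. Cdkn2d was at 161 and 149.7 CPM, against 37.7 and 43.1 CPM. Both are cell cycle genes and the classes were split by division genes, so these calls are descriptions.

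None of 22 cholesterol synthesis genes was called, and of 17 tested glycolysis genes Aldoc alone was called, lower in dividing astrocytes. Hmgcs1, an early enzyme of cholesterol synthesis, was at 681 and 735 CPM in dividing astrocytes and 937 and 882 CPM in non-dividing astrocytes, and Gapdh of glycolysis was at 1299 and 1117 CPM against 1085 and 1022 CPM. Of 21 genes that respond within minutes to stimulation or tissue dissociation, 5 were called lower and 0 higher in the members, against 3.40% of all tested genes called lower, with a median log2 difference of -0.64. Fos, a transcription factor, stood at 301 and 367 CPM in dividing astrocytes and at 901 and 728 CPM in non-dividing astrocytes, and its partner Junb at 90.5 and 87.2 CPM against 299 and 199 CPM. Dusp1, a phosphatase, and Socs3, an inhibitor of cytokine signals, were also called lower.

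**Figure D3:**
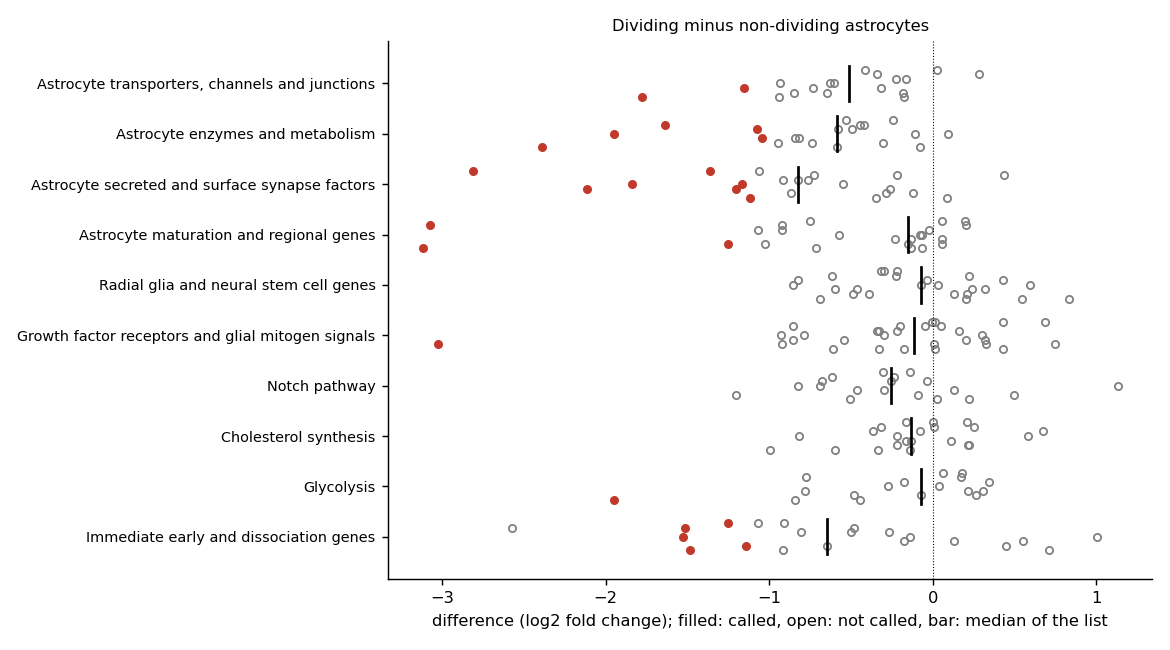
Log2 fold change of dividing minus non-dividing astrocytes for each tested gene of the lists, with called genes as filled points, uncalled ones open and a bar at the median of each list. The medians of the 4 astrocyte lists run from -0.82 to -0.15, below that of all tested genes at -0.03, with 17 of 82 genes called lower and 0 higher.

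Set against dividing OPCs, dividing astrocytes differed in few mitosis genes. Of all tested genes, 9.98% were called higher in dividing astrocytes and 6.64% lower. Of the 71 mitosis genes 1 was called higher and 1 lower, and the medians of the 3 mitosis lists were 0.01, -0.01 and 0.03, against 0.06 for all tested genes. The summed mitosis genes stood at 11411 and 11792 CPM in dividing astrocytes and at 11776 and 14301 CPM in dividing OPCs. The gene called higher was Pttg1, the separase inhibitor securin, with 115 and 125 CPM in dividing astrocytes and 40.7 and 53.4 CPM in dividing OPCs, a log2 change of 1.57 ± 0.23 (edgeR adjusted p of 1.36e-05). The gene called lower was Ska2, a kinetochore protein, with 36.2 and 47.7 CPM in dividing astrocytes and 98.6 and 145 CPM in dividing OPCs, which lost its call in thinned cells (-0.92). Cks2 was at 701 and 829 CPM in dividing astrocytes and 737 and 840.3 CPM in dividing OPCs. Its uncalled log2 difference was 0.11 ± 0.12 after TMM scaling of the fit, which turned the sign of the CPM difference, and -0.01 in thinned cells.

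Replication genes leaned towards the astrocytes. Of 38 tested, 6 were called higher in dividing astrocytes and 0 lower, against background shares of 9.98% and 6.64%. The count called higher ran from 2 to 7 over the alternative settings, so it was not always above that background. The median log2 difference was 0.45, against 0.06 for all tested genes, and 30 of the 38 were positive. Mcm3 was at 54.3 and 47.7 CPM in dividing astrocytes and 19.9 and 19.3 CPM in dividing OPCs, a change of 1.55 ± 0.36 that was uncalled in classes drawn after thinning. Gmnn, the licensing inhibitor geminin, Rpa1, a single-strand DNA binding protein, and Gins1 of the replication fork were called higher by 1.09, 1.35 and 1.27 on the log2 scale, and each lost its call in some settings. Dut, which removes dUTP, was at 400.4 and 253 CPM in dividing astrocytes and 403 and 246 CPM in dividing OPCs.

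Of 23 tested genes of the G1 phase, 2 were called higher and 3 lower in dividing astrocytes, against background shares of 9.98% and 6.64%, and the median log2 difference was 0.36. Ccnd1 fell to 40.7 and 59.2 CPM in dividing astrocytes, against 175 and 173 CPM in dividing OPCs, a log2 change of -1.63 ± 0.21 (edgeR adjusted p of 1.90e-06). The groups did not overlap, and a UMI was found in 38 of 120 dividing astrocytes and in 145 of 239 dividing OPCs. Ccnd3, cyclin D3, fell to 22.6 and 23.0 CPM in dividing astrocytes, against 60.6 and 69.7 CPM in dividing OPCs. Ccnd2, at 459 and 546 CPM in dividing astrocytes and 367 and 193 CPM in dividing OPCs, differed by 0.96 ± 0.22 just under the fold limit and was called in 3 alternative settings. Cdkn1c, the inhibitor p57, was called lower by 1.53 on the log2 scale, and Ccne2 and Rbl1, a relative of the retinoblastoma protein, were called higher by 1.22 and 1.09, but all 3 lost their calls in at least 4 settings. Cdkn1b, at 186 and 192 CPM in dividing astrocytes and 196 and 193 CPM in dividing OPCs, had an uncalled difference of 0.10 ± 0.15, again with a sign set by the scaling.

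Receptors differed more than the division genes did. Of 30 tested growth factor receptor and mitogen genes, 17 were called higher and 3 lower in dividing astrocytes, against background shares of 9.98% and 6.64%, and the median was 1.73. Many of these genes mark one of the lineages, and the classes were drawn by lineage genes, so the count is a description. Egfr (chromosome 11, 16752203 to 16918158, plus strand of mm10) stood at 163 and 149.7 CPM in dividing astrocytes and at 14.5 and 10.4 CPM in dividing OPCs, a log2 change of 3.74 ± 0.28. A UMI of it was found in 60.8% of dividing astrocytes and 7.95% of dividing OPCs (34% and 33.3% of dividing astrocytes, against 6.47% and 2.27% of dividing OPCs, after thinning). Fgfr3, a fibroblast growth factor receptor, was at 113 and 129.9 CPM in dividing astrocytes and 8.14 and 2.96 CPM in dividing OPCs, and Ptch1, the Sonic hedgehog receptor, at 95.0 and 100.3 CPM against 20.8 and 22.2 CPM. In the other direction, Erbb4, a neuregulin receptor, was at 11.3 and 11.5 CPM in dividing astrocytes and 78.7 and 78.5 CPM in dividing OPCs.

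Tgfa (chromosome 6, 86195223 to 86275719, plus strand of mm10), which encodes a ligand of the Egfr protein, had no UMI in any of the 120 dividing astrocytes, a count of 0 that allows a share of cells with a UMI of up to 2.50% (3 cells of 120) and sets no limit on the share of cells that express the gene. Dividing OPCs held 106 UMIs of it in 80 of 239 cells, so that it was at least 20.8-fold lower in dividing astrocytes, with a floor of 3 UMIs over the group. Non-dividing astrocytes had a Tgfa UMI in 37 of 576 cells, or 6.42%.

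Of 19 tested Notch pathway genes, 8 were called higher and 3 lower in dividing astrocytes, against background shares of 9.98% and 6.64%. The list was split both ways, with a median log2 difference of 0.08 against 0.06 for all tested genes. The ligands Dll1 and Dll3 and the glycosyltransferase Mfng were the genes called lower. Notch2, a receptor, stood at 278 and 232 CPM in dividing astrocytes and 34.4 and 25.2 CPM in dividing OPCs, and Lfng, a glycosyltransferase that modifies Notch receptors, at 95.0 and 82.2 CPM against 5.43 and 4.45 CPM. Hes5, a target, was at 457 and 487 CPM in dividing astrocytes and 213 and 124 CPM in dividing OPCs, a change of 1.60 ± 0.19. The ligand gene Dll3 fell to 2.26 and 6.58 CPM in dividing astrocytes, against 94.1 and 77.1 CPM in dividing OPCs.

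Genes of the astrocyte lineage were higher than in dividing OPCs, as the rule fixes. Of the 82 tested genes of the 4 astrocyte lists, 57 were called higher and 3 lower, against background shares of 9.98% and 6.64%. Of 25 radial glia genes, 18 were called higher. Serpinf1, a secreted serpin, had 131 UMIs in dividing astrocytes and 0 in dividing OPCs, at least 74.0-fold higher. Itga6, an integrin, had 109 UMIs in dividing astrocytes and 1 in dividing OPCs, 185-fold higher with a counting interval of 32.5 to 7367. Tnc, the matrix protein tenascin C, stood at 269 and 500 CPM in dividing astrocytes and at 4.52 and 2.96 CPM in dividing OPCs. In metabolism, 5 of 22 cholesterol synthesis genes were called higher and 0 lower, against background shares of 9.98% and 6.64%. The count called higher ran from 1 to 10 over the settings. Hmgcs1 stood at 681 and 735 CPM in dividing astrocytes and 308 and 296 CPM in dividing OPCs. Hmgcs1 lost its call in classes drawn after thinning (0.91).

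**Figure D4:**
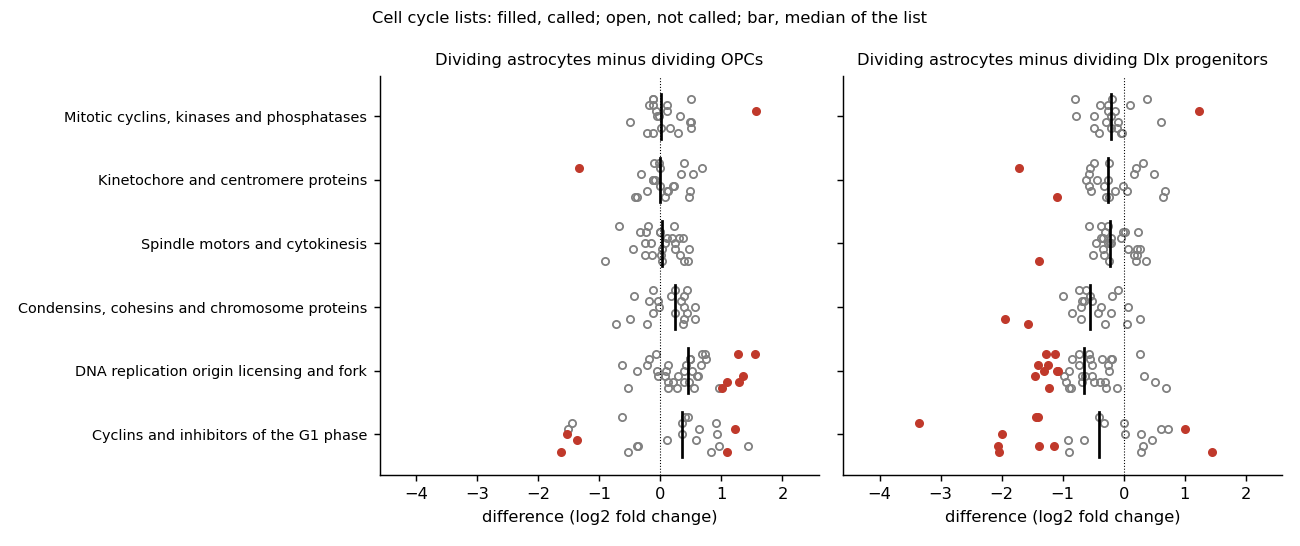
Log2 fold change of each tested cell cycle gene in dividing astrocytes minus dividing OPCs and minus dividing Dlx progenitors, by list, with called genes as filled points and a bar at the median of each list. The mitosis lists centre near 0 against dividing OPCs, and the replication list has a median of 0.45 against dividing OPCs and -0.66 against dividing Dlx progenitors.

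Dividing Dlx progenitors, which make inhibitory neurons, differed from dividing astrocytes in replication and G1 genes. Of all tested genes 16.5% were called higher in dividing astrocytes and 9.92% lower. Of the 71 mitosis genes, 1 (Pttg1) was called higher and 3 (Ska2, Ndc80 and Kifc1) lower, with medians of -0.20, -0.26 and -0.23, against -0.02 for all tested genes. Pttg1 stood at 115 and 125 CPM in dividing astrocytes and 57.4 and 40.1 CPM in dividing Dlx progenitors. Ndc80, a kinetochore protein, was at 36.2 and 42.8 CPM in dividing astrocytes and 82.0 and 82.6 CPM in dividing Dlx progenitors, and lost its call in classes drawn after thinning (-0.86). Kifc1, a spindle motor, was at 58.8 and 24.7 CPM in dividing astrocytes and 90.5 and 111 CPM in dividing Dlx progenitors.

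Of the 38 tested replication genes, 9 were called lower in dividing astrocytes and 0 higher, against background shares of 9.92% and 16.5%. Their median was -0.66, and 8 to 15 were called lower over the settings. Dut stood at 400.4 and 253 CPM in dividing astrocytes and at 762 and 699 CPM in dividing Dlx progenitors, a log2 change of -1.24 ± 0.16. Mcm7, a helicase subunit, was at 95.0 and 82.2 CPM in dividing astrocytes and 219 and 205 CPM in dividing Dlx progenitors. Rfc4, a clamp loader subunit, and Orc6 of the origin recognition complex changed by -1.23 and -1.41. Of 21 chromosome proteins, 2 were called lower, close to the background share of 9.92%. Hmgn2, a nucleosome binding protein, stood at 2373 and 1811 CPM in dividing astrocytes against 7807 and 7696 CPM in dividing Dlx progenitors. Hmgb3 was at 366 and 314 CPM against 926 and 999 CPM.

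Of the 23 genes of the G1 phase, 8 were called lower and 2 higher in dividing astrocytes, against background shares of 9.92% and 16.5%. Ccnd2 (chromosome 6, 127125162 to 127152193, minus strand of mm10) stood at 459 and 546 CPM in dividing astrocytes and at 2084 and 1982 CPM in dividing Dlx progenitors, a log2 change of -2.06 ± 0.20 (edgeR adjusted p of 3.62e-09). Both values in dividing astrocytes lay far below both in dividing Dlx progenitors, although 109 of 120 dividing astrocytes and 1360 of 1383 dividing Dlx progenitors had a UMI. Cdk4 and Cdk6, the kinases that bind D-type cyclins, changed by -1.40 ± 0.13 and -2.04 ± 0.23, and Mycn, a growth-promoting factor, had 0 and 6.58 CPM in dividing astrocytes against 40.2 and 35.1 CPM in dividing Dlx progenitors. Ccnd1 ran the other way, at 40.7 and 59.2 CPM in dividing astrocytes and 18.4 and 16.4 CPM in dividing Dlx progenitors, a change of 1.45 ± 0.26. Cdkn2c was called higher by 1.01 on the log2 scale. The inhibitor Cdkn1c was called lower by 2.0 on the log2 scale, Cdkn1a by 1.14 with its call lost in 8 settings, and Cdkn1b differed by -0.91 ± 0.13, just under the fold limit, and was called in both thinned settings.

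**Figure D5:**
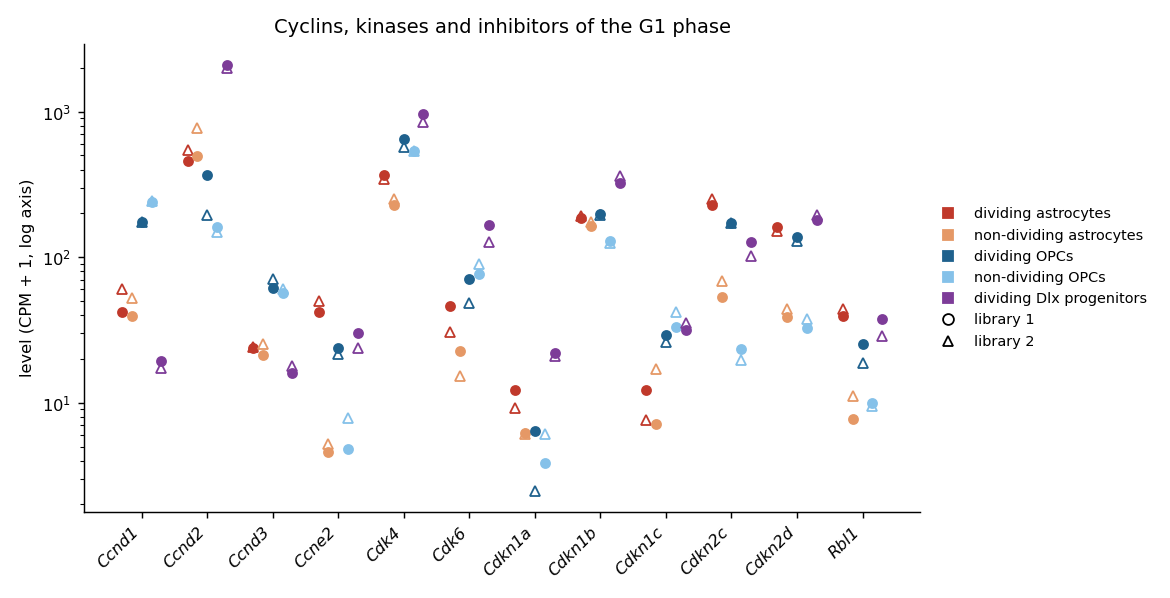
Level of genes of the G1 phase in dividing astrocytes and the other classes, as CPM plus 1 on a log axis, with library 1 as filled circles and library 2 as open triangles. Ccnd1 is higher in dividing OPCs, at 175 and 173 CPM, than in dividing astrocytes, at 40.7 and 59.2 CPM, and Ccnd2 is highest in dividing Dlx progenitors, at 2084 and 1982 CPM.

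Cholesterol and glycolysis genes were higher in dividing astrocytes than in dividing Dlx progenitors. Of 22 cholesterol synthesis genes 18 were called higher and 0 lower (16 to 19 called higher over the settings), with a median of 1.79, against a background of 16.5%. Hmgcs1 stood at 681 and 735 CPM in dividing astrocytes and at 95.6 and 92.6 CPM in dividing Dlx progenitors, a log2 change of 2.85 ± 0.13 (edgeR adjusted p of 9.57e-16). Msmo1, a later enzyme of the pathway, was at 359.7 and 391 CPM in dividing astrocytes and 56.9 and 45.2 CPM in dividing Dlx progenitors. Of 17 glycolysis genes 9 were called higher and 0 lower (8 to 11 higher over the settings). Eno1, an enolase, was at 414 and 444 CPM in dividing astrocytes and 112 and 116 CPM in dividing Dlx progenitors, and Ldha, a lactate dehydrogenase subunit, at 419 and 377 CPM against 121 and 97.6 CPM.

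Receptors and their feedback genes were also higher than in dividing Dlx progenitors. Of 30 tested growth factor receptor and mitogen genes, 22 were called higher and 1 lower, against background shares of 16.5% and 9.92%. Here too the classes were drawn by lineage genes and many of these genes mark a lineage, so the count is a description. Fgfr3 stood at 113 and 129.9 CPM in dividing astrocytes and 2.15 and 1.37 CPM in dividing Dlx progenitors, and Ednrb, the endothelin B receptor, at 520.3 and 429 CPM against 45.5 and 30.1 CPM. Spry2 and Etv4, genes induced by receptor tyrosine kinase signals, changed by 2.20 ± 0.15 and 5.36 ± 0.31. Egfr was at 163 and 149.7 CPM in dividing astrocytes and 48.5 and 38.8 CPM in dividing Dlx progenitors. Of 19 Notch genes 8 were called higher and 4 lower, against the same background shares. Their median was -0.12, against -0.02 for all tested genes. Nrarp and Hey1, both targets of Notch, changed by 2.50 ± 0.20 and 3.29 ± 0.31. Hes5, at 457 and 487 CPM in dividing astrocytes and 643 and 489 CPM in dividing Dlx progenitors, differed by -0.31 ± 0.17. Jun fell to 95.0 and 113 CPM in dividing astrocytes, against 279 and 292 CPM in dividing Dlx progenitors.

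Whether division changed the same genes in astrocytes and OPCs was asked by testing the difference between their division differences. The log2 change of dividing minus non-dividing astrocytes less that of dividing minus non-dividing OPCs was called at an adjusted p under 0.05 with the same sign in both libraries. Of 10565 genes, 18 had a higher difference in astrocytes, a share of 0.170%, and 35 a lower one, a share of 0.331%. Of the 153 tested cell cycle genes 2 were called higher and 4 lower. Of 8 tested microglia markers 4 were called higher, with a list median of 3.62, and 3 members of library 2 held 10 or more UMIs of these markers. In library 1, dividing and non-dividing astrocytes held 1 and 2 UMIs of the list, and dividing OPCs held 1. Non-dividing OPCs of library 1 held 145, with 2 cells at 10 or more and up to 119 in a cell. The part of these cells in the calls was not tested. Nuf2, a kinetochore protein, stood at 154 and 143 CPM in dividing astrocytes and 23.2 and 8.45 CPM in non-dividing astrocytes, against 106 and 135 CPM in dividing OPCs and 0.955 and 0 CPM in non-dividing OPCs. Its difference in astrocytes was the smaller one, by 4.19 ± 0.67 in size on the log2 scale (edgeR adjusted p of 0.00169). Non-dividing OPCs held 3 UMIs of it, so that this size depends on the count added in the fit. Lmnb1, a lamin of the nuclear envelope, was at 330.3 and 276 CPM in dividing astrocytes and 25.8 and 22.0 CPM in non-dividing astrocytes, against 313 and 419 CPM in dividing OPCs and 87.5 and 93.6 CPM in non-dividing OPCs, an interaction of 1.61 ± 0.25. For Gfap the interaction was -3.21 ± 0.82 with an edgeR adjusted p of 0.0782 and for Egfr 1.53 ± 0.37 with an edgeR adjusted p of 0.0572, so neither was called. Both were called with no filter on low counts. Gfap was also called by DESeq2 and with the OPC classes drawn without their pericyte and fibroblast limit. Egfr was also called among cells of at least 4000 UMIs and with astrocytes of at most 1 neuronal UMI.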

How the data were processed

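Cells of brains of postnatal day 10 mice were profiled in 2 droplet libraries of 1 group. The authors deposited gene by barcode matrices of raw UMI counts, with no normalization, and per the submitters' processing notes they came from Cell Ranger 6.1.2 and genome mm10. The UMI counts were used as deposited. Barcodes were kept at 500 genes, 1500 UMIs and 10% mitochondrial UMIs, and classes were drawn from raw UMIs of marker genes. The OPC classes also had at most 1 UMI of 6 pericyte and fibroblast genes, a limit added after the data were seen. The members and gene lists were chosen with earlier results of these data known. Doublets were marked with Scrublet in each library (571 of 11486 and 282 of 9255 barcodes) and kept, with their removal as an alternative.

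Counts were summed per class and library, which gave dividing astrocytes sums of 442033 and 607940 UMIs. The 10 sums of 5 classes were tested with edgeR 4.0.16 (R 4.3.3) by the quasi-likelihood test, with TMM scaling, the filterByExpr filter on low counts (10565 genes tested), library as a block and Benjamini-Hochberg adjustment. The classes of a library come from the same droplet run and pair by design. The correlation of their deviations from the class means ran from 0.0956 to 0.218 over pairs of classes. The block takes out a difference between the libraries that all classes share. The 4 residual degrees of freedom hold the remaining disagreement between these libraries, pooled over the 5 classes. The quasi-likelihood test also shares information on spread between genes. The p-values therefore do not measure the spread between animals, or the spread of a gene between these libraries alone. The 21 genes used to draw classes were left out of the tests. The procedure was checked on simulated counts.

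Genes were named by a rule: in each comparison the 8 called genes that changed most in each direction at 30 CPM or more, up to 4 called genes of each list with the smallest adjusted p, the most abundant gene of each list, and 18 genes of general interest. Genes of the lists of other cell types, and cell cycle genes in the first comparison, were not eligible for the first part. Some eligible genes are not reported here. Alternatives were DESeq2 1.42.0, its size factors, no filter, no block, deeper or thinned cells, other limits on division UMIs and mitochondrial UMIs, and removal of doublets or mixed cells. Sequences came from RefSeq promoter windows of GRCm38.p6 and gene positions from the GENCODE annotation of mm10. Python 3.11.15 with scipy 1.17.1, pandas 2.3.3, scanpy 1.11.5 and matplotlib 3.10.9 was used.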

Additional observations from a re-analysis of the deposited data

Results flagged for a closer look

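The difference between astrocytes and OPCs in their division change was called for the genes given here, each as the log2 change of dividing minus non-dividing astrocytes less that of dividing minus non-dividing OPCs, by edgeR's quasi-likelihood test with Benjamini-Hochberg adjustment. Most lost this call in at least 1 alternative setting; among these genes Nuf2 and Ckap5 kept it in all that were run.

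Among division genes the difference was -4.19 for Nuf2, -2.72 for Spag5, a spindle protein, -1.35 for Ckap5, which lengthens microtubules, and -1.06 for Cks1b, a kinase subunit. It was 1.33 for Dut, 1.61 for Lmnb1 and 1.99 for Mybl1, a transcription factor of the Myb family. Sapcd2, a protein linked to spindle orientation, had a difference of 1.90: it stood at 74.7 and 82.2 CPM in dividing astrocytes and 12.4 and 10.1 CPM in non-dividing astrocytes, against 271 and 332 CPM in dividing OPCs and 177 and 149 CPM in non-dividing OPCs. Rprm, an inhibitor of the cycle induced by p53, had a difference of 1.98. It was at 36.2 and 39.5 CPM in dividing astrocytes and 13.9 and 15.2 CPM in non-dividing astrocytes, against 120.3 and 144 CPM in dividing OPCs and 217 and 174 CPM in non-dividing OPCs.

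Of 82 tested genes of the 4 astrocyte lists, 3 were called lower and 0 higher, against 0.331% and 0.170% of all tested genes. The difference was -1.48 for Sparcl1, -1.11 for Glul and -7.75 for Agt, and -1.58 for the receptor gene Notch2. Sparcl1 lost this call in 6 settings, Agt in 7, and Glul and Notch2 in 4 each. The OPC classes held 3 and 0 UMIs of Agt, so its value depends on the count added in the fit. Kcne1l (-2.33), Gm14964 (-3.61), Lratd1 (-3.30), Tnfaip8l1 (-3.49) and Zfp512b (-2.58) also had lower differences. Higher ones were found for Neto2 (1.62), Yae1d1 (1.65), the heat shock gene Hspa1a (2.17) and Gmcl1 (3.51). Hspa1a was uncalled at 0.62 without the astrocytes that held 10 or more microglia UMIs. Gm32913 (13.70) had 775 UMIs in non-dividing OPCs of library 1, 1 in those of library 2 and 0 in dividing OPCs, so that its value rests on 1 library.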

How the results depend on the processing

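Of 159 single-gene results, 110 kept their direction and call under all 13 alternative settings that give a test, 39 lost their call in at least 1, 10 gained one in at least 1, and 1 changed sign: Kcne1l, whose difference between astrocytes and OPCs was 0.12 in classes drawn after thinning, against -2.33. Drawing classes after thinning every cell to 3000 UMIs, an alternative chosen after seeing the data, gave 617 called genes between dividing and non-dividing astrocytes (main value 1020), 994 against dividing OPCs (1755) and 28 for the interaction (53). Thinning the chosen cells gave 1051 called genes against dividing OPCs. The interaction count was 170 with no filter on low counts and 29 with the OPC classes drawn without their pericyte and fibroblast limit. Without the library block (no pairing of classes by library) it was 14, and the counts of the 3 comparisons were then 978, 1683 and 2759, within 1.5 times of those with the block. The count against dividing Dlx progenitors, 2790, moved by less than 1.5 times in every setting.

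The share of dividing cells was 5.80% in library 1 and 12.4% in library 2 after thinning, and 28.5% in library 2 at 5% mitochondrial UMIs or less. Leaving out a library gives the share of the other, 11.1% or 22.4%. Calls have no such value, since 1 library leaves no replicate. The change in the remaining library differed from the fitted change by more than the SD of the 2 libraries in 31 results without library 1. It did so in 30 results without library 2. Each of 2 values lies within their SD of their mean, so these counts arise where the fitted change differs from that mean. They cannot show whether a result depends on a library. The causes of the changes between settings were not tested. The 120 cells of 2 libraries limit precision: between dividing and non-dividing astrocytes the SE of the log2 change was 0.11 for the abundant gene Vim and 0.57 for Kcnj16, which had few UMIs.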
